A study of Mus musculus with 15 samples.

Results

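The mitochondrial respiratory chain passes electrons from NADH and succinate to oxygen and uses the energy released to pump protons. Complex I oxidises NADH, complex II (succinate dehydrogenase) oxidises succinate, complex III hands electrons from ubiquinone to cytochrome c, and complex IV (cytochrome c oxidase) hands them to oxygen. Heart muscle is packed with mitochondria, and most subunits of these complexes are encoded in the nucleus and imported. The genes described here are 38 nuclear genes for subunits of complexes I to IV and for cytochrome c, and 37 of them had a probe set annotated to that gene alone: 18 of complex I, 4 of complex II, 6 of complex III, 8 of complex IV and the gene for cytochrome c, among 16627 genes tested. Cox7b was not analysed here. Of the probe sets of a gene, the brightest on average over the 15 arrays stood for it.

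The arrays came from whole hearts of male mice, and the labels give 10 weeks for each. A total of 8 arrays were labelled as controls and 7 as heterozygous for Lmna H222P, a substitution in lamins A and C, proteins of the nuclear lamina. The allele stands in the labels without a tissue-specific promoter or Cre, and the mouse strain is not given in the sources used here. Total RNA was measured on 1-colour Affymetrix arrays, 1 per sample, in linear signal units scaled to the same trimmed mean on every array (2% of values trimmed at each end). The labels tie no sample to a litter, day or batch, so p-values measure only the spread between these samples, and the number of arrays limits the precision.

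The sampled tissue was checked against marker genes. All 10 ventricular cardiomyocyte markers were tested, none passed an adjusted p of 0.05, and their mean log2 signal per array ran from 14.03 to 15.42 in controls and from 13.70 to 14.93 in heterozygous hearts. The 7 atrial markers differed between the groups, 6 higher and 1 lower (-0.62, log2) in heterozygous hearts at an unadjusted limma p below 0.05. Their mean log2 signal was 7.30 to 9.54 in controls and 9.11 to 11.43 in heterozygous hearts, 3 of 7 passed the adjusted threshold, all higher, and none was at a signal of 0. The 6 erythroid and platelet markers had means of 8.04 to 8.85 in controls and 7.28 to 7.80 in heterozygous hearts, with 2 called lower. In whole-heart RNA, fewer cells of a type and less RNA per cell cannot be told apart.

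Upstream sequence of the genes was examined for short motifs of factors known to act on respiratory genes, to show what the members share beyond their function. RefSeq promoters, 250 bases before to 50 after the gene start on GRCm38.p6, were matched for 26 of the 37 genes. The core of the NRF1 site, a factor that binds many nuclear genes for mitochondrial proteins, was searched as GCGCATGC on both strands. It lay in 4 of 26 promoters (15.4%), against 2.80% of 27025 genes. The 4 promoters are shown as 30-base stretches on the strand of the gene with the core in capitals, which reads GCATGCGC where the core is on the opposite strand; the Uqcrc1 stretch also holds the opposite-strand form, overlapping the capitals.
Cycs (chr6:50566611-50566640, minus strand): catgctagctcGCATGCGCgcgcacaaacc
Ndufa8 (chr2:36049328-36049357, minus strand): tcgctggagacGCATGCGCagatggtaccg
Sdhb (chr4:140961206-140961235, plus strand): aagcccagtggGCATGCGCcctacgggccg
Uqcrc1 (chr9:108936667-108936696, plus strand): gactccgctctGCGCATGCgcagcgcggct

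The YY1 core, searched as AAGATGGC on both strands, lay in 5 of 26 promoters (19.2%), against 2.88% of all genes. All 5 are complex I genes, as are 18 of the 37 members, and the share among the 26 matched promoters was not counted. Each match lay on the strand of the gene and after its start. The letters contain ATG, so a match after the start can overlap a start codon. The stretches are shown with the core in capitals.
Ndufa9 (chr6:126849097-126849126, minus strand): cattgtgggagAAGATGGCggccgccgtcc
Ndufb8 (chr19:44555393-44555422, minus strand): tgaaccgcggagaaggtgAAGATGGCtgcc
Ndufc1 (chr3:51408915-51408944, minus strand): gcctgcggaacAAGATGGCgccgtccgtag
Ndufs4 (chr13:114388045-114388074, minus strand): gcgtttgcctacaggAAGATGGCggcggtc
Ndufs7 (chr10:80249462-80249491, plus strand): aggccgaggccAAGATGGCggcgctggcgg

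Other motifs, each on both strands, were nearer their share among all promoters or met in few members. The ETS core CCGGAAG lay in 4 of 26 promoters (15.4%, against 9.12%), those of Ndufs3, Ndufs8, Sdhb and Sdhd. The ERR half-site CAAGGTCA lay in that of Sdhd (3.85%, against 1.53%), and the MEF2 core TAAAAATA in 0 (against 2.71%). The CCAAT box was in 23.1% (against 37.9%) and the E-box CANNTG in 65.4% (against 72.1%). Motifs were allowed to overlap one another, and a match describes letters in this window, not a bound site.

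The members were among the brightest features on the arrays. Their mean log2 signals ran from 12.41 to 14.91, against a median of 6.00 over all probe sets, and all 37 were in the top 5%. On the signal scale, the group geometric means ran from 4593 for Sdhc in controls to 30883 for Uqcrb in controls. A level on the array also depends on the probes, so levels are not compared between genes.

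No respiratory chain gene passed the threshold between heterozygous and control hearts. With limma and Benjamini-Hochberg adjustment over 38870 probe sets, 0 of 37 members had an adjusted p below 0.05, where 0.252% of all probe sets did. At an unadjusted p below 0.05 there was 1 member, Sdhc, which is 2.70% of the members, where 14.6% of all probe sets were below it. In either direction the background was 4.44% higher and 10.1% lower in heterozygous hearts. Among the 794 probe sets with a mean log2 signal above 12, the range of all members, 7.18% were below an unadjusted p of 0.05 and 0% were called. The members' share rests on 1 gene. The groups did not overlap for 0 of 37 members, against 0.468% of all probe sets.

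The differences were small and lay on both sides of 0. Heterozygous minus control log2 signal was above 0 for 15 members and below 0 for 22, with a median of -0.03 and a range from -0.24 to 0.52. The median over all tested probe sets was -0.11. The split follows the scaling of the arrays: with each array centred on its median signal, 36 members were higher and 1 lower (median 0.17, all probe sets 0.10), and with quantile normalization 10 were higher and 27 lower. The 95% interval of the difference lay within 1.5-fold in both directions for 33 of 37 members (89.2%), where this held for 21.6% of all probe sets and 68.8% of those with a mean log2 above 12. It held for 18 members with median centring and for 0 with the atrial or the erythroid and platelet mean as a covariate. Both marker means differ between the groups, so these fits separate marker and group poorly and their intervals are wide. The median differences by complex ran from -0.06 to 0.03 with the atrial mean. With the erythroid and platelet mean they ran from -0.90 to -0.28. The 4 members whose intervals reached past 1.5-fold were Ndufb3, Sdhc, Uqcrc2 and Cox8b.

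**Figure D1:**
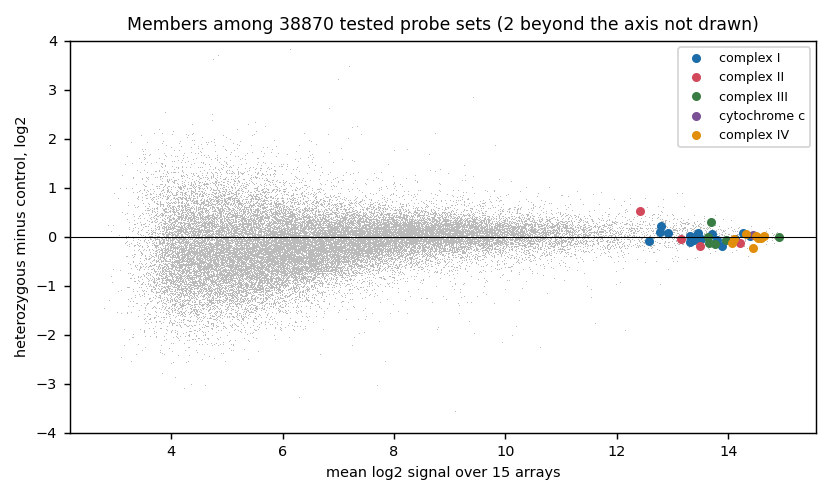
Heterozygous minus control log2 signal (vertical axis) against mean log2 signal over 15 arrays (horizontal axis) for 38870 tested probe sets in grey and the 37 members in the colour of their complex, with 2 probe sets beyond the axis. The members sit between 12.41 and 14.91 on the horizontal axis, and all but Sdhc lie close to 0.

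**Figure D2:**
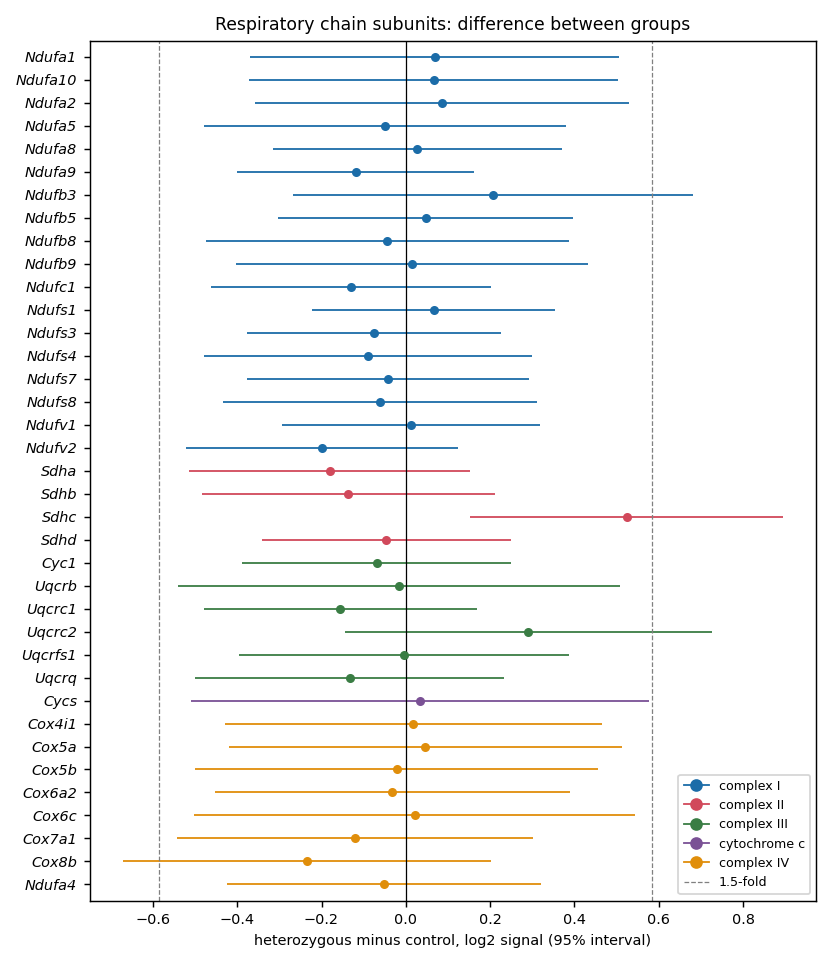
Heterozygous minus control log2 signal of each member with its 95% interval from limma (n = 8 and 7), coloured by complex, with dashed lines at 1.5-fold. The interval of Sdhc is the one that leaves out 0, and 33 of 37 intervals lie between the dashed lines.

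Complex I takes electrons from NADH, and its 18 members were evenly divided, 9 higher and 9 lower, with a median difference of -0.01 and a range from -0.20 to 0.21. None was called or had an unadjusted p below 0.05, and 17 of 18 intervals lay within 1.5-fold. The NADH-binding end of the complex was represented by Ndufv1, Ndufv2 and Ndufs1. Ndufv2, an iron-sulphur subunit, had the smallest p of complex I. Its signal ran from 13599.5 (lowest) through 15412 (median) to 24686 (highest) in controls and from 10607 through 14563 to 16056 in heterozygous hearts. The groups overlapped, with 2 heterozygous arrays below every control and control array 5 far above the rest. The difference was -0.20 ± 0.15 (SE, log2; limma adjusted p = 0.570), a ratio of 0.871 with a 95% interval from 0.696 to 1.09. Ndufv1, which carries the flavin, differed by 0.01 (ratio 1.01, interval 0.815 to 1.25), and Ndufs1, an iron-sulphur subunit, by 0.07.

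Subunits at the ubiquinone end of complex I differed as little. Ndufs3, Ndufs7 and Ndufs8, core subunits of this part, differed by -0.08, -0.04 and -0.06. The accessory subunit Ndufs4, which is not counted at this end, differed by -0.09. Ndufa9, an accessory subunit near the ubiquinone site, ran from 9189 through 10004 to 13854 in controls and from 7864 through 9995 to 10975 in heterozygous hearts. The medians were close, and 1 heterozygous array was below all controls. Its difference was -0.12 ± 0.13 (SE, log2; limma adjusted p = 0.715).

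In heterozygous hearts the widest spread of complex I was that of Ndufb3, an accessory subunit of the membrane arm. Ndufb3 ran from 5305 through 6727 to 7805 in controls and from 4955 through 6595 to 14448 in heterozygous hearts. The heterozygous arrays lay on both sides, 3 above the highest control and 2 below the lowest. The difference was 0.21 ± 0.22 (SE, log2; limma adjusted p = 0.705), and the SD over arrays was 0.58 in heterozygous hearts and 0.19 in controls. The other accessory subunits of complex I, of either arm, were Ndufa1, Ndufa2, Ndufa5, Ndufa8, Ndufa10, Ndufb5, Ndufb8, Ndufb9 and Ndufc1. They differed by -0.13 to 0.09, with Ndufc1 lowest and Ndufa2 highest.

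Complex II, which feeds electrons from succinate, held the member with the smallest p. Sdhc, 1 of its 2 membrane anchors, ran from 3232 through 4395 to 6361 signal units in controls and from 4869 through 7085 to 7790 in heterozygous hearts. The groups overlapped, but all 7 heterozygous arrays were above the control median and 5 were above the highest control. The difference was 0.52 ± 0.17 (SE, log2), a ratio of 1.44 with a 95% interval from 1.11 to 1.86. It did not pass after adjustment (limma unadjusted p = 0.00877, adjusted p = 0.205). A further probe set of Sdhc differed by 0.38 (limma adjusted p = 0.274), with all 7 heterozygous arrays above the control median. The name of this probe set ends in _x_at, which marks probes that can also bind other transcripts. The difference of Sdhc was 0.39 (limma adjusted p = 0.835) with the atrial marker mean as a covariate and -0.027 with the erythroid and platelet mean, which does not overlap between the groups. The part of either in the Sdhc difference was not tested further.

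The other subunits of complex II lay on the opposite side of 0. Sdha, the flavoprotein that oxidises succinate, ran from 10588 through 11919 to 16626 in controls and from 8207 through 10539 to 15601 in heterozygous hearts. The groups overlapped, with 4 of 7 heterozygous arrays below the lowest control. Its difference was -0.18 ± 0.16 (SE, log2; limma adjusted p = 0.620). The iron-sulphur subunit Sdhb differed by -0.14 and the other anchor Sdhd by -0.05. A dim probe set annotated to Sdha, with a mean log2 signal of 6.96, differed by -1.17 (limma adjusted p = 0.0659), and all 7 of its heterozygous arrays were below the lowest control. It passed with a filter at a log2 signal of 6 (adjusted p = 0.0340) and with a trended robust prior (0.0283), while a further bright probe set of Sdha differed by 0.03.

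**Figure D3:**
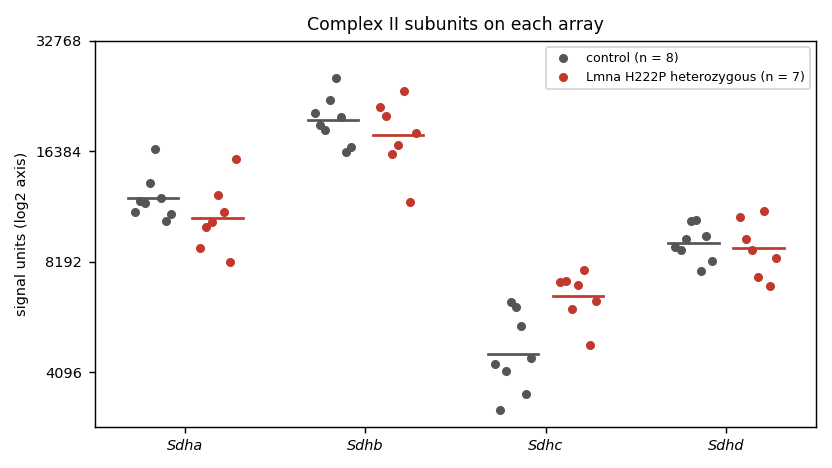
Signal of Sdha, Sdhb, Sdhc and Sdhd on each array (log2 axis, signal units) for 8 control and 7 heterozygous hearts, with bars at the geometric means. The Sdhc points of heterozygous hearts lie between 4869 and 7790, those of controls between 3232 and 6361, and the other 3 subunits overlap broadly.

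Complex III, the ubiquinol-cytochrome c reductase, had 1 member higher and 5 lower, with a median difference of -0.04 and a range from -0.16 to 0.29. The higher member was Uqcrc2, a core subunit without a redox centre. It ran from 9397 through 11304 to 20242 in controls and from 8888 through 16238 to 19943 in heterozygous hearts. The groups overlapped over nearly their whole range, with 6 of 7 heterozygous arrays above the control median and control array 5 at the top. The difference was 0.29 ± 0.20 (SE, log2; limma adjusted p = 0.534), a ratio of 1.22 with an interval from 0.904 to 1.65. With control array 5 and heterozygous array 6 both left out it was 0.52 (limma adjusted p = 0.216), and with the erythroid and platelet mean as a covariate -0.16 (limma adjusted p = 0.991). Its further probe set differed by 0.13.

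The partner core subunit Uqcrc1 ran from 11682 through 13813 to 21179 in controls and from 11059 through 13802 to 15734 in heterozygous hearts. The medians nearly coincided, and 3 heterozygous arrays were below the lowest control. The difference was -0.16 ± 0.15 (SE, log2; limma adjusted p = 0.670). Uqcrq, a small structural subunit, ran from 10092 through 12984 to 20358 in controls and from 9128 through 12601 to 15116 in heterozygous hearts, overlapping except for 1 low heterozygous array, and differed by -0.13 ± 0.17 (limma adjusted p = 0.759). The redox subunits Cyc1 (cytochrome c1) and Uqcrfs1 (the Rieske iron-sulphur protein) differed by -0.07 and -0.01, and the small subunit Uqcrb by -0.02.

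Cycs encodes cytochrome c, the soluble carrier between complexes III and IV. Its signal ran from 15515 through 20998.5 to 43621 in controls and from 11340 through 25577 to 30751 in heterozygous hearts. The control group alone spanned most of the range, from control array 5 downwards. The difference was 0.03 ± 0.26 (SE, log2; limma adjusted p = 0.967), a ratio of 1.02 with an interval from 0.702 to 1.49.

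Complex IV reduces oxygen, and of its 8 members 3 were higher and 5 lower, with a median difference of -0.03 and a range from -0.24 to 0.05. The subunits that most tissues share, Cox4i1, Cox5a, Cox5b and Cox6c, differed by 0.02, 0.05, -0.02 and 0.02. Ndufa4, once counted with complex I and now with complex IV, ran from 13834 through 17946 to 26788 in controls and from 11115 through 18105 to 21577 in heterozygous hearts, overlapping except for 1 low heterozygous array. Its difference was -0.05 ± 0.17 (SE, log2; limma adjusted p = 0.919). For Cox6c a further probe set differed by 0.60 (limma adjusted p = 0.335), against 0.02 for the brighter one.

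Heart and skeletal muscle use muscle forms of 3 complex IV subunits, encoded by Cox6a2, Cox7a1 and Cox8b, beside or in place of the widely expressed Cox6a1, Cox7a2 and Cox8a. Cox8b ran from 17210.1 through 23943.5 to 41445 in controls and from 13002 through 21209 to 27015 in heterozygous hearts. The groups overlapped, with 2 of 7 heterozygous arrays above the control median, and the difference was -0.24 ± 0.21 (SE, log2; limma adjusted p = 0.623), a ratio of 0.850 with an interval from 0.628 to 1.15. Cox7a1 ran from 13218 through 18165 to 28452 in controls and from 10557 through 16553 to 24812 in heterozygous hearts, again overlapping with 2 above the control median, and differed by -0.12 ± 0.20 (limma adjusted p = 0.816).

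Cox6a2 ran from 18098 through 24253 to 38714 in controls and from 13753 through 25034 to 29824 in heterozygous hearts, and differed by -0.03 (limma adjusted p = 0.957). The groups overlapped, with 4 heterozygous arrays above the control median. The chosen probe sets of the widely expressed partners lay above 0 without passing. Cox8a had control signals of 4651, 5760.0 and 7028 (lowest, median, highest) and heterozygous signals of 4411, 5730.2 and 9225. Cox7a2 had 18347, 26279 and 42782 in controls and 14282, 29555 and 36978 in heterozygous hearts. Cox6a1 had 6127, 6734 and 9512 in controls and 6059.5, 8737 and 9804 in heterozygous hearts. The differences were 0.13 for Cox8a, 0.09 for Cox7a2 and 0.17 for Cox6a1, and the groups overlapped for each. The name of the Cox8a probe set ends in _x_at, as for the further one of Sdhc. Of the further Cox8a probe sets, a bright one differed by 0.09 and a dim one by -0.20. For the Cox6a pair the further probe sets gave the opposite signs, 0.14 for Cox6a2 and -0.13 for Cox6a1.

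A constant scaling factor of an array does not move the log2 signal ratio of the muscle form to its partner on that array. A change in the spread of signals on the array can move it. The ratio was compared with exact two-sided permutation tests over 6435 regroupings, adjusted over 4 pairs. The p is the share of regroupings whose difference is at least as large in size as that seen. Cox7a1 over Cox7a2 was -0.51 ± 0.06 (SD, n = 8) in controls and -0.73 ± 0.20 (SD, n = 7) in heterozygous hearts. The control ratios ran from -0.59 through -0.51 to -0.40 and the heterozygous ones from -0.94 through -0.73 to -0.44, so that 5 of 7 heterozygous arrays were below the lowest control. The difference was -0.21 (exact permutation p = 0.0145, adjusted p = 0.0230).

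Cox8b over Cox8a was 2.08 ± 0.23 (SD, n = 8) in controls, from 1.88 through 2.04 to 2.56, and 1.72 ± 0.31 (SD, n = 7) in heterozygous hearts, from 1.27 through 1.89 to 2.03. The groups overlapped, and 0 of 7 heterozygous arrays were above the control median. The difference was -0.36 (exact permutation p = 0.0172, adjusted p = 0.0230). This call is lost without control array 4 or 5 or heterozygous array 1 or 6 (adjusted p from 0.0502 to 0.0520), and with the mean of all probe sets of each gene (-0.24, exact permutation adjusted p = 0.356). Without heterozygous array 1 the Cox7a1 pair is also at 0.0520. Cox6a2 over Cox6a1 was 1.79 ± 0.37 (SD, n = 8) against 1.59 ± 0.30 (SD, n = 7), a difference of -0.20 (exact permutation p = 0.284, adjusted p = 0.284), which turned to 0.039 with the mean of all probe sets of each gene. A ratio within an array shows unequal change and not which gene of the pair differs.

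The last pair has no muscle form: Cox4i1 is the common form of the largest nuclear-encoded subunit and Cox4i2 a form best known from lung. Cox4i1 over Cox4i2 was 6.87 ± 0.55 (SD, n = 8) in controls, from 5.73 through 6.90 to 7.59, and 7.79 ± 0.64 (SD, n = 7) in heterozygous hearts, from 6.87 through 7.91 to 8.57. The groups overlapped, with 6 of 7 heterozygous arrays above the control median. The difference was 0.91 (exact permutation p = 0.0112, adjusted p = 0.0230), and 0.87 (adjusted p = 0.0520) without heterozygous array 1. Cox4i2 was dim, with signals of 105.5 through 189.75 to 428.9 in controls and 79.1 through 98.5 to 201.9 in heterozygous hearts. It differed by -0.89 ± 0.27 (SE, log2; limma adjusted p = 0.172). Cox4i1 and Cox4i2 lie far apart in brightness. Over all tested probe sets the median difference was -0.11, and 0.03 for those with a mean log2 signal above 12. The part of this in the ratio was not tested.

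**Figure D4:**
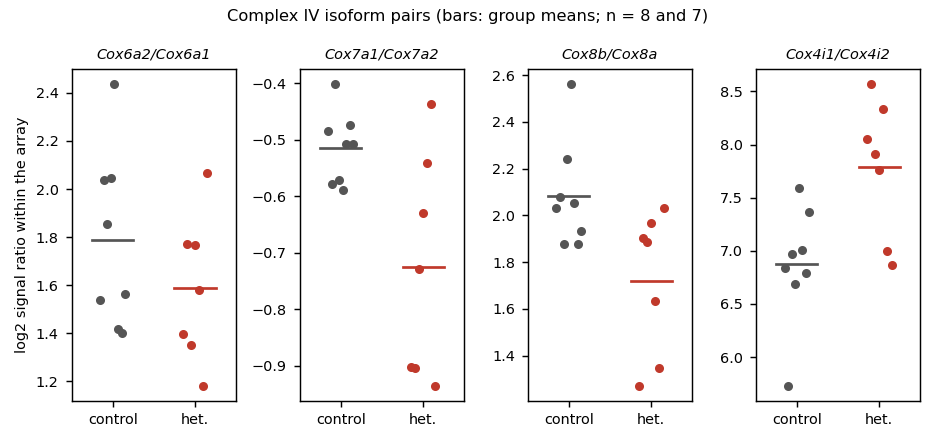
The log2 signal ratio within each array for 4 pairs of complex IV isoforms in 8 control and 7 heterozygous hearts, with bars at the group means and a separate vertical scale for each pair. The ratios are lower in heterozygous hearts for Cox7a1/Cox7a2 (-0.21) and Cox8b/Cox8a (-0.36), higher for Cox4i1/Cox4i2 (0.91), and overlapping for each pair.

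Beside these ratios stand the marker lists of other cells. Brown adipocytes also express some of these muscle forms, and skeletal muscle all 3. The brown adipocyte marker Ucp1 was near the bottom of the scale, at 6.2 to 29.9 in controls and 2.7 to 14.9 in heterozygous hearts, and too low to be tested. Of the other 4 brown adipocyte markers on the arrays none was called and 1 was higher at an unadjusted p below 0.05, the adipocyte hormone Adipoq, at 1.6 to 54.5 in controls and 28.8 to 243.6 in heterozygous hearts (1.86, limma adjusted p = 0.233). The list's mean log2 signal was 6.69 to 8.01 in controls and 7.52 to 8.42 in heterozygous hearts. Of 9 skeletal muscle markers none was called and 1, Tnnt3, was higher at an unadjusted p below 0.05 (1.52, limma adjusted p = 0.335), with means of 4.78 to 7.35 and 4.89 to 7.19. Of 7 fibroblast markers none was called and 3 were higher at an unadjusted p below 0.05, with means of 10.34 to 10.76 and 9.97 to 11.48. The ratio of 3′ to 5′ beta-actin signal, a sign of RNA integrity, was 1.22 to 2.34 in controls and 1.26 to 3.23 in heterozygous hearts. The part of these, and of the atrial and blood markers, in the isoform ratios was not tested.

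The upstream sequences of the pairs whose muscle form was compared and whose ratio passed are shown as the 100 bases before the gene start, on the strand of the gene, from RefSeq on GRCm38.p6. Capitals in Cox7a1 mark a CCAAT box on the opposite strand, and capitals at the end of Cox8a the first letters of an opposite-strand ETS core that runs past the start.
Cox7a1 (chr7:30184071-30184170, plus strand): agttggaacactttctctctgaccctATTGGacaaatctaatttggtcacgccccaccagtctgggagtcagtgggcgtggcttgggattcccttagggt
Cox7a2 (chr9:79759854-79759953, minus strand): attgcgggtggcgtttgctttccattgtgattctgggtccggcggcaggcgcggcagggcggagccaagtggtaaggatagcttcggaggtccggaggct
Cox8b (chr7:140900447-140900546, minus strand): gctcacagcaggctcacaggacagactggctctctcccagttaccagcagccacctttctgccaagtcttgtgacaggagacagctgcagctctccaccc
Cox8a (chr19:7217617-7217716, minus strand): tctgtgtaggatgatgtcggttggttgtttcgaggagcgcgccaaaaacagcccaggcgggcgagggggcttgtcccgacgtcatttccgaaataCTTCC

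The muscle forms had fewer CpG dinucleotides in the whole promoter window than their partners, 7 in Cox7a1 against 20 in Cox7a2 and 2 in Cox8b against 19 in Cox8a, where the median over all promoters was 7. The GC content was 53% and 56.7% for the first pair and 48.3% and 56% for the second, around a median of 52.7%. None of these 4 promoters held the NRF1, YY1, ERR or MEF2 letters.

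Much of the spread between hearts was common to most members. The mean log2 signal of the 37 members had an SD over arrays of 0.26 in controls and 0.29 in heterozygous hearts, close to the median SD of a single member, 0.30 and 0.35. After the member mean of each array was subtracted, the median SD of a member was 0.14 and 0.16. The SD became smaller for 35 of 37 members in controls and 32 of 37 in heterozygous hearts. It did not for Ndufs1 and Sdhd in controls and for Ndufa9, Ndufs8, Ndufv1, Sdha and Uqcrc1 in heterozygous hearts. Control array 5 had the highest member mean (14.29) and was the highest control for 35 of 37 members. Heterozygous array 6 had the lowest (13.21) and was the lowest of its group for 32 of 37. The same arrays had the highest and lowest mean of the ventricular markers, 15.42 and 13.70. The group means of the member mean were 13.77 in controls and 13.76 in heterozygous hearts.

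**Figure D5:**
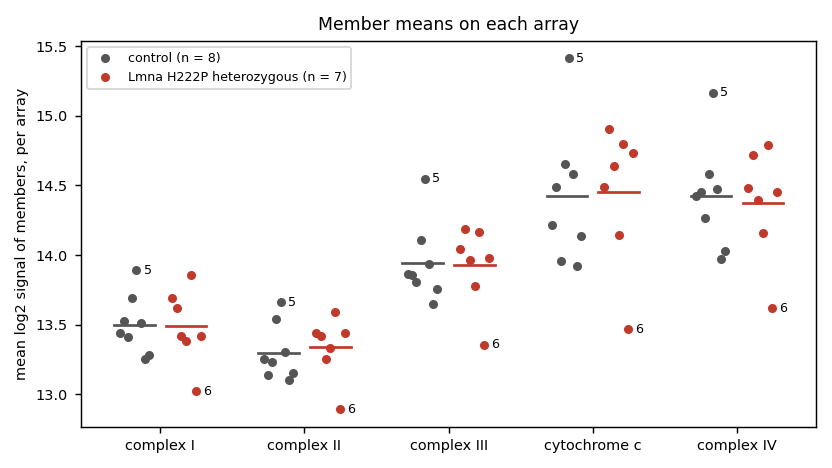
Mean log2 signal of the members of each complex on each array, for 8 control and 7 heterozygous hearts, with bars at the group means and control array 5 and heterozygous array 6 numbered. Those arrays are the highest control and the lowest heterozygous array in all 5 columns, and the group means lie close together.

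Relative to the other members, Sdhc stood lower in controls. Its log2 signal minus the member mean of the array was -2.11 to -1.33 in controls and -1.18 to -0.84 in heterozygous hearts, without overlap. It was the single such member of 37, and it was already the member with the smallest p. Of all tested probe sets, 0.198% did not overlap on this scale, against 0.468% before the subtraction. The subtraction narrowed the spread of most members, so this share is not a like background for them. With the member mean as a covariate its difference was 0.54 (limma adjusted p = 0.120), and that of Uqcrc2 was 0.31 (limma adjusted p = 0.272). Uqcrc2 relative to the member mean ran from -0.52 to 0.02 in controls and from -0.09 to 0.33 in heterozygous hearts, overlapping. Next by size came Cox8b at -0.22 and Ndufb3 at 0.22, both overlapping. This scale was chosen after the shared spread had been seen.

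Several members are measured by more than 1 probe set, 22 of 37. For 12 of these the tested probe sets differed in sign, for 4 all were below 0 and for 6 all above. Of 41 further probe sets tested, 0 were called and 4 (9.76%) had an unadjusted p below 0.05, where 0.252% and 14.6% of all probe sets did. The 4 were those of Sdhc, Sdha and Cox6c given above and a dim probe set of Ndufb9 that differed by -1.39 (limma adjusted p = 0.168), where the bright one differed by 0.02.

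Other genes of the respiratory machinery gave no calls either. Over 8 further lists on respiration and mitochondria, 123 genes were tested and 0 passed the adjusted threshold. At an unadjusted p below 0.05, 4 were higher and 5 lower (7.32% together). This share was 14.6% for all probe sets and 7.18% for those with a mean log2 signal above 12. Of 16 other complex I subunits none had such a p, with a median difference of -0.02. Those with the smallest were Ndufa12 (-0.29, limma adjusted p = 0.527) and Ndufb4 (0.38, adjusted p = 0.597), the latter from a dim probe set with control signals of 15.9 to 91.8. Of 3 other complex III subunits none had such a p, with Uqcr10 at -0.14 and Uqcrh at 0.12. Of 10 other complex IV genes 2 were lower, Cox4i2 and the testis form Cox8c (-0.38, limma adjusted p = 0.340).

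Of the listed genes of the mitochondrial genome, only ND5, a proton-pumping subunit of complex I, had a probe set annotated to it alone. It ran from 19966 through 26663 to 65869.6 in controls and from 13780.0 through 29452 to 37972 in heterozygous hearts, overlapping, and differed by -0.08 (limma adjusted p = 0.920). Of 18 subunits of ATP synthase, which uses the proton gradient, none had an unadjusted p below 0.05, with a median of -0.02. The smallest p values belonged to Atp5g2 (-0.12) and Atp5l (-0.18). Of 13 enzymes of the tricarboxylic acid cycle, which supplies NADH and succinate, none had such a p either, with a median of -0.03 and the succinyl-CoA ligase subunits Suclg2 (-0.34) and Sucla2 (-0.20) first.

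Assembly factors build the complexes without staying in them. Of 43, 3 were higher and 2 lower at an unadjusted p below 0.05, with a median of -0.04. Tmem126b, needed for complex I assembly, ran from 195.2 through 262.8 to 329.5 in controls and from 102.7 through 175.0 to 251.2 in heterozygous hearts. The groups overlapped, and the difference was -0.70 (limma adjusted p = 0.146). Timmdc1, also a complex I assembly factor, ran from 366.8 through 466.1 to 527.0 in controls and from 324.0 through 816.2 to 920.3 in heterozygous hearts, overlapping, and differed by 0.57 (limma adjusted p = 0.284).

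Of 19 regulators of mitochondrial biogenesis, 1 was higher and 1 lower at an unadjusted p below 0.05, with a median of -0.02. Ppara, a nuclear receptor that drives fatty acid oxidation, ran from 695.1 through 1170.6 to 1260.6 in controls and from 302.1 through 502.7 to 1105.6 in heterozygous hearts. The groups overlapped, with 4 heterozygous arrays below the lowest control, and the difference was -0.92 (limma adjusted p = 0.181). Its other probe sets differed by -0.01 and -0.15. Yy1, the factor whose core was searched above, ran from 600.8 through 651.2 to 795.3 in controls and from 584.6 through 852.2 to 1134.6 in heterozygous hearts, overlapping, and differed by 0.33 (limma adjusted p = 0.331). Its other 3 probe sets lay on the opposite side of 0, at -0.20, -0.11 and -0.19.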

How the data were processed

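Total RNA of 15 whole hearts was biotin-labelled for Affymetrix arrays, per the labels' protocols. The authors deposited intensities, as 1 linear signal for each probe set on each array. The submitters' processing notes name GCRMA, with no version. GCRMA usually gives log2 values, and the table's equal trimmed means are those of scaled signals, so how probes were summarised is not settled. Scanner output and detection calls were not used here.

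Signals were log2-transformed without a pseudocount. Of 45101 probe sets, 34958 had 1 gene symbol in the platform annotation, 932 several and 9211 none, and 34754 were found in RefSeq by gene identifier. The 64 control probe sets were left out, and 38870 probe sets with a log2 signal above 4 on at least 7 of 15 arrays, whatever the group, were tested with limma 3.58.1 in R 4.3.3 (group as the single term, two-sided, Benjamini-Hochberg, threshold 0.05). Ratios are of geometric means. The isoform ratios were tested with exact permutations in Python 3.11.15. Figures were drawn with matplotlib 3.10.9. The fit was also run on simulated data with seeded changes. Their noise was independent between probe sets, unlike the shared spread of the members. At most 0.290% of values were identical between any pair of arrays.

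The members, the gene lists and the tests were chosen with earlier results of these data known. Values in each group are given for the 3 members of complexes I, III and IV and the 2 of complex II with the smallest p, for Cycs and for the isoform pairs. In each further list up to 2 genes with the smallest p are named, some with group values. Others are named with their difference only, and further probe sets of a member were picked out with their values in view. Alternatives were no filter and a filter at a log2 signal of 6, median centring, quantile normalization, array weights, a trended robust prior, the replicate block, marker and beta-actin covariates, other choices of probe set, Ndufa4 in complex I and leaving out each array. The member mean as a covariate and leaving out control array 5 with heterozygous array 6 were added after seeing the data.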

Additional observations from a re-analysis of the deposited data

Results flagged for a closer look

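In each group, the array farthest out was compared with its neighbour for the 37 members, the 4 isoform ratios and 4 complex means. Of 90 groups examined, 7 had an array standing apart, and chance gives about 1 in 20 for a single group. The members share much of their spread, and the ratios and complex means reuse their signals. The groups are thus not independent, and the 7 cannot be weighed against that rate. All 7 lay on control array 5 or heterozygous array 6. Control array 5 was highest for Ndufv2 (log2 signal 14.59, next 14.13), Uqcrb (15.86, next 15.05), Uqcrc2 (14.31, next 13.72) and Cox6a2 (15.24, next 14.66). Heterozygous array 6 was lowest for Ndufa9 (12.94, next 13.22), Ndufv2 (13.37, next 13.72) and Cox5a (13.51, next 14.20).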

How the results depend on the processing

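No member was called under any of 29 alternatives, and the lowest adjusted p any member reached was 0.101 (Sdhc, trended robust prior). Members at an unadjusted p below 0.05 numbered 0 with the atrial or the erythroid and platelet covariate, 2 (Sdhc and Uqcrc2) with median centring, the member mean as covariate, or control array 5 and heterozygous array 6 both left out, and 1 to 2 when single arrays were left out. Members with an interval inside 1.5-fold numbered 0 with either marker covariate, both of which differ between the groups, and 18 with median centring. With the erythroid and platelet covariate, whose means do not overlap between groups, the medians were -0.32 (complex I), -0.53 (III), -0.90 (cytochrome c) and -0.66 (IV), Sdhc was -0.027 (adjusted p = 0.998) and Uqcrc2 -0.16 (adjusted p = 0.991). Only Cox8b and Ndufb3 kept their sign in all 28 fits. With the mean of a gene's probe sets, Cox6a2/Cox6a1 was 0.039 and Cox8b/Cox8a -0.24. With both extreme arrays left out, Cox8b/Cox8a was -0.23 (exact permutation adjusted p = 0.0831). Leaving out single arrays gave -0.26 to -0.18 for Cox7a1/Cox7a2, -0.41 to -0.29 for Cox8b/Cox8a and 0.75 to 1.06 for Cox4i1/Cox4i2. Same-numbered arrays did not deviate together (correlations -0.06 to 0.06, 1 of 7 heterozygous arrays closest to its own number). Correlations over all tested probe sets cannot exclude a small effect shared by same-numbered arrays. With the replicate block the ratios were -0.21, -0.38 and 0.98 (exact sign-flip permutation adjusted p = 0.125 each), and still 0 members were called. Of all 38870 tested probe sets, 1 was called with this block, against 98 without it. Most calls among the atrial and the erythroid and platelet markers were thus lost. The number of arrays and the unsettled probe summary limit the precision, and dim probe sets scatter more than the members.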
